A study of Homo sapiens with 6 samples.

Results

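The genes described here are the heat shock proteins, DNAJ proteins and CCT chaperonin subunits of HT29 cells. They were taken from the gene table as protein-coding genes whose symbol starts with HSP, with DNAJ, or with CCT and a digit. Left out were HSPG2, a proteoglycan, and the endoplasmic reticulum chaperones HSPA5, HSPA13, HSP90B1, DNAJB9, DNAJB11 and DNAJC3. The rule took 81 of the 58978 genes in the table, and 65 of the 81 passed the filter on low counts, against 14809 of all genes. The symbol HSPA14 stands for 2 entries with their own Ensembl identifiers.

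HT29 is an established human colorectal adenocarcinoma cell line. RNA-seq libraries were made from HT29 cells carrying a hairpin against FITM2 (shFITM2, 3 libraries, genotype given as a FITM2 knockdown) and from HT29 cells carrying a control hairpin (shCTRL, 3 libraries, genotype given as WT). FITM2 is a membrane protein of the endoplasmic reticulum that takes part in lipid droplet formation. All cells were labelled untreated, so no heat, drug or cytokine was part of the comparison, and all shared the McCoy's 5A medium with fetal bovine serum. The labels give neither the hairpin sequences, nor how many hairpins or clones were used, nor whether replicates of a group came from separate cultures, and the p-values therefore measure a spread that may be technical.

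Molecular chaperones bind proteins that are not yet folded, or no longer folded, and release them in cycles driven by ATP. HSP70 proteins take clients from DNAJ proteins, which raise their ATPase activity, and give them up when HSP110-type exchange factors release ADP. HSP90 finishes the folding of many kinases and receptors, the CCT ring (TRiC) folds actin and tubulin, and HSPD1 with HSPE1 forms the chamber in which mitochondrial proteins fold. When unfolded proteins accumulate, heat shock factor 1 (HSF1) trimers bind repeated GAA units in the promoters of many of these genes, an arrangement called the heat shock element. Tumour cells commonly hold high levels of these proteins.

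FITM2 itself was at 4.83, 5.98 and 4.95 CPM (counts scaled to library size) in shFITM2, against 13.2, 10.5 and 10.4 CPM in shCTRL. Every shFITM2 library lay below every shCTRL library, and the mean was 46.0% of control (log2 fold change −1.12 ± 0.157 SE, adjusted p = 0.000242 in edgeR's quasi-likelihood test). Permuting the log2 CPM over the libraries (exact, two-sided) gave p = 0.1, and groups of 3 can give no smaller one. The libraries held 16964075 to 18855731 counts. The slope of log2 expression on transcript GC content ran from 0.18 to 0.26 per 10 percentage points in shFITM2 and from −0.34 to −0.06 in shCTRL, and shCTRL replicate 3 was the control closest to shFITM2 (10.7 on the first principal component, against −36.4 to −28.7 for shFITM2 and 38.8 and 49.2 for the other shCTRL libraries). All 10 epithelial and colon markers averaged at least 1 CPM, with sums of 14339 to 15139 CPM in shFITM2 and 10442 to 12626 CPM in shCTRL, and 8 of the 10 were called higher and 1 lower in the group fit (24.2% and 24.5% of all tested genes were). With the GC content of transcripts accounted for, as described next, 4 were higher and 1 lower (11.8% and 17.4% of all tested genes were). Of 6 leukocyte markers, LYZ and CD14 passed 1 CPM and the rest, the pan-leukocyte gene PTPRC included, were near 0. LYZ was high, at 765 to 914 CPM. The 6 summed to 888 to 927 CPM in shFITM2 and 776 to 902 CPM in shCTRL, and without LYZ to at most 13.2 CPM. The 6 fibroblast markers summed to 1.26 to 1.53 CPM in shFITM2 and 1.06 to 2.82 CPM in shCTRL, and the 6 endothelial markers to 1.53 to 2.74 CPM in shFITM2 and 1.88 to 2.49 CPM in shCTRL. The part of the epithelial marker differences in the results on chaperones was not tested.

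Because GC content moved with the groups, each gene is given in a fit with the group alone and in a second fit that removes each library's GC trend (the GC offset). A trend that arose in the cells and one that arose in making the libraries cannot be told apart in this design. Calls were made at an adjusted p below 0.05 over all tested genes, and fold changes are shFITM2 minus shCTRL on the log2 scale.

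Promoters of some of these genes carry the element that HSF1 reads. The windows printed here were chosen with the calls known. In the group fit 4 abundant members that have the element were called lower and the inducible HSP70 pair, without an exact match, higher. DNAJB6, which has the element, was called higher, and HSPH1 and HSPA4, without a match in their windows, were called lower. A link between the element and the direction was not tested. RefSeq promoter windows (GRCh38.p14, from 250 bases before to 50 bases from the transcription start on) were matched for 70 of the 80 symbols. The 3-unit element was searched as GAANNTTCNNGAA and TTCNNGAANNTTC, which covers both strands. It stood in 7 of the 93 member windows (7.53%) and in 172 of the 35116 windows of all genes (0.490%). The 7 genes were HSPA6, HSPD1, HSP90AB1, DNAJB6, DNAJA1, HSPA8 and HSP90AA1. In the next 4 windows, written 5′ to 3′ on the gene's strand, capitals mark the element.
HSP90AA1: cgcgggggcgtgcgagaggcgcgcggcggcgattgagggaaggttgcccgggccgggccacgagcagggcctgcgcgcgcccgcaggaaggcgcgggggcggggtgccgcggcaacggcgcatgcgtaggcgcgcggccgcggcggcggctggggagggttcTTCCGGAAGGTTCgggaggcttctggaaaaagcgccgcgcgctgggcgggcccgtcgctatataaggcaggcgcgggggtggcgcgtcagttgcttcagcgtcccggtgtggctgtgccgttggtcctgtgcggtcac
HSP90AB1: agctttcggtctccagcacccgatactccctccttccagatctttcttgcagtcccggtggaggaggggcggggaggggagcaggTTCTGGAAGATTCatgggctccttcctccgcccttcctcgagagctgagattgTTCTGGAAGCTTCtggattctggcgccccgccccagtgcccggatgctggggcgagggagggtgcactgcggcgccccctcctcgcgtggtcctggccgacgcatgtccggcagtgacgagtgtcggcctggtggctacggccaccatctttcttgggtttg
HSPA8: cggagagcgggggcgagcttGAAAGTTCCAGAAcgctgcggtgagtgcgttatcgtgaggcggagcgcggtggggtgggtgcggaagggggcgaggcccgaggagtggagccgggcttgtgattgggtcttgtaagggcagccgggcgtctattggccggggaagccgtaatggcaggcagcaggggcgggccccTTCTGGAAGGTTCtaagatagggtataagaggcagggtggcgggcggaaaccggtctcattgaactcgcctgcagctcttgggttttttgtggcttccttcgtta
HSPD1: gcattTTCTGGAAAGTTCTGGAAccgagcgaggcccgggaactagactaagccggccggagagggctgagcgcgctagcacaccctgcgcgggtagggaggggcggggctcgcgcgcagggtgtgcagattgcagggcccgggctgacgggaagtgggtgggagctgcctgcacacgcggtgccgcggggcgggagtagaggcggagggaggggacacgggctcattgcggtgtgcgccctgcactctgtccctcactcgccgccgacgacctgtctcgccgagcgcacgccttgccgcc
These windows lie at chr14:102086995-102087294 (minus strand), chr6:44247693-44247992 (plus strand), chr11:123062087-123062386 (minus strand) and chr2:197499791-197500090 (minus strand). RefSeq lists 2 windows each for HSP90AA1 and HSPD1, 3 for HSP90AB1 and 1 for HSPA8, and the windows shown are those that hold the element. HSP90AA1 had 1 match, starting 88 bases before the start, HSP90AB1 and HSPA8 had 2 separate matches each, and HSPD1 had 2 that overlap. A match of letters is a description of the window and does not show binding.

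The windows of the stress-inducible pair HSPA1A and HSPA1B are shown because they are close copies that held no exact 3-unit match. In them capitals mark TATAAA, searched on the gene's strand alone.
HSPA1A: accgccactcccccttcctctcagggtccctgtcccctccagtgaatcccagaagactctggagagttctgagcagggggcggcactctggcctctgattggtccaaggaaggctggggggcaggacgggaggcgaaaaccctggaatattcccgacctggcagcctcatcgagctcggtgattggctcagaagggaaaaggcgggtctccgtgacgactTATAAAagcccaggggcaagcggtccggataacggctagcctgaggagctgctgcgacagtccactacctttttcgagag
HSPA1B: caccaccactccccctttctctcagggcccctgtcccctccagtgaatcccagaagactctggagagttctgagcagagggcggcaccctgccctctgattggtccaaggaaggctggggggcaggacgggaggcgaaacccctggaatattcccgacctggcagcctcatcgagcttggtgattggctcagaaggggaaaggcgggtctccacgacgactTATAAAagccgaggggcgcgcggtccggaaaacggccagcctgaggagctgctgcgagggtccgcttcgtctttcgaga
They lie at chr6:31815293-31815592 and chr6:31827488-31827787, both on the plus strand. TATAAA began 30 bases before the start of HSPA1A and 29 bases before that of HSPA1B, and 7.33% of all windows hold it. The aligned windows were identical at 277 positions, with 22 mismatches and 2 gaps (92.6% identity). That no exact match was found says only that these letters are not in this window.

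Taken over the 81 genes, chaperone mRNA made up a smaller share of the shFITM2 libraries. Their reads summed to 11497, 11639 and 11640 CPM in shFITM2, against 14501, 14597 and 13836 CPM in shCTRL, which is 1.15%, 1.16% and 1.16% of all reads in shFITM2 against 1.45%, 1.47% and 1.37% in shCTRL. The groups did not overlap, and the mean sum was 81.0% of control. These sums were not adjusted for the GC trend. HSP90AB1, HSPA8 and HSPD1 alone supplied 38.5% of member reads and the 10 highest genes 69.9%, so the sum follows few genes. In bulk RNA, fewer cells holding an mRNA and less of it per cell cannot be told apart.

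Of the 65 tested chaperones, 40 were called in the group fit (background 48.7%). In that fit 29 were called lower in shFITM2 (24.5% of all tested genes were) and 11 were called higher (24.2% of all tested genes were), while 25 were not called. After the GC trend was removed, 25 were called lower (background 17.4%) and 7 higher (background 11.8%). The count of 7 was 4 without shFITM2 replicate 1, without shFITM2 replicate 2 or without shCTRL replicate 2. Both fits called 20 members lower (background 10%) and 4 higher (background 7.91%), and 2 members, HSPA1B and HSPBP1, were called in opposite directions by the 2 fits (background 2.15%). With each of the 6 libraries left out in turn, 15 of the 20 lower members kept the call in both fits throughout. They were CCT2, CCT4, CCT6A, DNAJC2, DNAJC7, HSP90AA1, HSP90AB1, HSPA14 (first entry), HSPA4, HSPA4L, HSPA8, HSPA9, HSPD1, HSPE1 and HSPH1. Of the 4 higher members, DNAJB2, DNAJC14 and HSPA1A did so. The median log2 fold change of tested members was −0.24 in the group fit and −0.09 in the GC-offset fit, against medians of 0.00 and −0.03 over all genes. It was −0.14 in the group fit when the filter on low counts was dropped. In 31 members every shFITM2 library lay below every shCTRL library (29.9% of all tested genes did so), and in 15 every shFITM2 library lay above (29.1%).

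Most lower calls, 22 of 29 in the group fit, were in abundant members. Of the 34 members with a mean of at least 50 CPM, 22 (64.7%) were lower in the group fit, 20 (58.8%) in the GC-offset fit and 16 (47.1%) in both. Over all 4484 genes of that abundance the shares were 38.3%, 32.5% and 18.7%. Of the 31 tested members under 50 CPM, 7 were lower in the group fit and 5 were higher, near the shares of all tested genes under 50 CPM (18.5% lower and 21.4% higher).

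**Figure D1:**
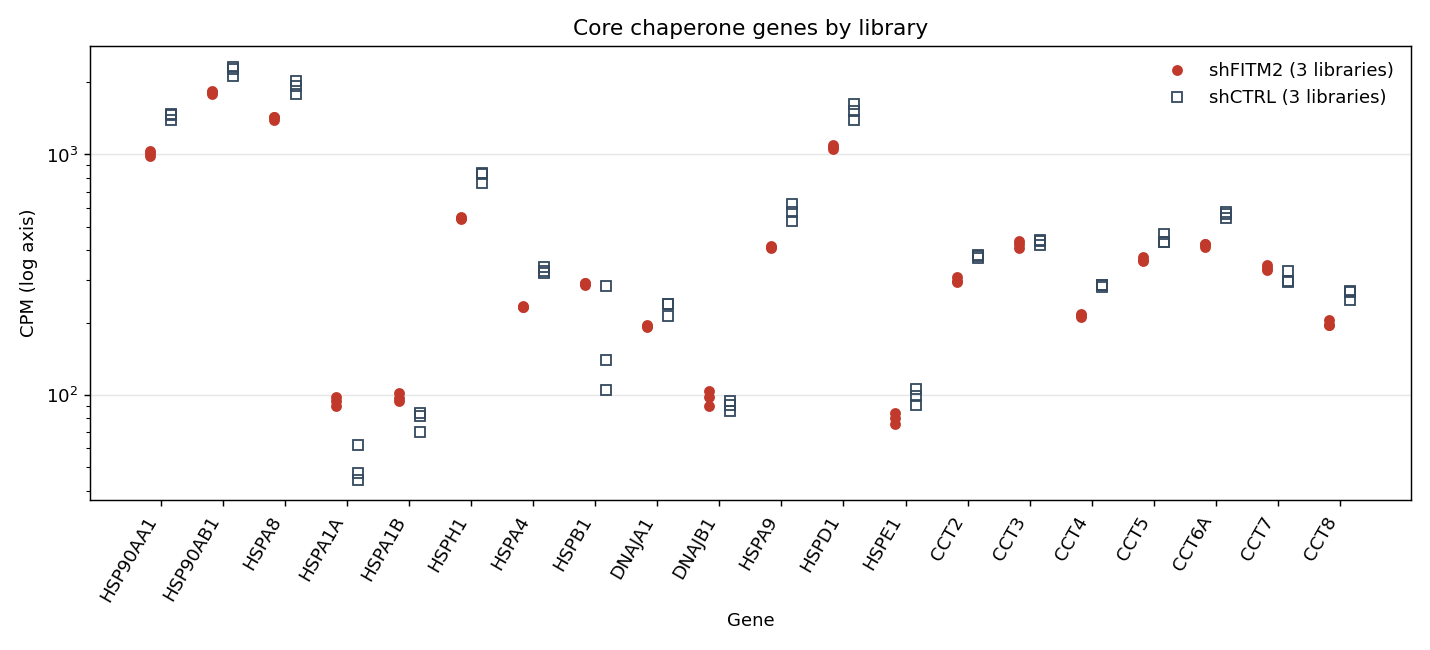
CPM (log axis) of 20 core chaperone genes in each of the 6 libraries, shFITM2 as filled circles and shCTRL as open squares. For HSP90AA1, HSP90AB1, HSPA8, HSPH1, HSPA4, HSPA9 and HSPD1 all 3 shFITM2 points lie below all 3 shCTRL points, while HSPA1A and HSPA1B lie above.

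Both cytosolic HSP90 genes were lower after FITM2 knockdown. HSP90AA1, the stress-inducible form, was at 984, 1029 and 1016 CPM in shFITM2, against 1460, 1476 and 1386 CPM in shCTRL. HSP90AB1, the constitutive form, was at 1777, 1817 and 1835 CPM in shFITM2, against 2275, 2321 and 2114 CPM in shCTRL. For both genes the 3 shFITM2 libraries lay close together and below every shCTRL library. HSP90AA1 fell by 0.51, in log2 units (SE 0.0581, adjusted p = 8.26e-05 in edgeR's quasi-likelihood test) and by 0.36 in the GC-offset fit (adjusted p = 1.47e-05). HSP90AB1 fell by 0.31 (adjusted p = 0.00155) and by 0.28 in the GC-offset fit (adjusted p = 0.000269). Per length, in TPM (counts scaled to gene length and to the library), HSP90AA1 stood at 31.7% ± 0.412 of HSP90AB1 in shFITM2 and at 36.6% ± 0.572 in shCTRL (SD, n = 3 each), with no overlap between the groups. This ratio was not adjusted for the GC trend, and the transcripts of HSP90AA1 and HSP90AB1 have 45.2% and 48.1% GC.

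Of 9 tested cytosolic HSP70 genes, 2 were higher (22.2%) and 3 lower (33.3%) in the group fit. These shares are near those of all tested genes (24.2% higher and 24.5% lower). HSPA8, the constitutive HSP70 (HSC70) that serves most general folding, was at 1391, 1429 and 1429 CPM in shFITM2, against 2017, 1919 and 1784 CPM in shCTRL. All shFITM2 values lay below all shCTRL values, a log2 fall of 0.43 (SE 0.0625, adjusted p = 0.000297) and of 0.35 in the GC-offset fit (adjusted p = 4.19e-05). HSPA1A, an inducible HSP70, went the other way, at 98.5, 90.3 and 93.9 CPM in shFITM2, against 47.4, 44.4 and 62.2 CPM in shCTRL. Its groups did not overlap, with a mean of 184% of control, and it was higher by 0.88 (SE 0.115, adjusted p = 0.000211) and by 0.36 in the GC-offset fit (adjusted p = 0.000576). HSPA1B, the adjacent copy, had 102, 97.5 and 94.6 CPM in shFITM2, against 81.5, 70.3 and 84.1 CPM in shCTRL. Its libraries did not overlap either, and its log2 fold change was 0.32 (adjusted p = 0.00780), but −0.16 in the GC-offset fit (adjusted p = 0.0478). The GC-offset call of HSPA1B was lost without any 1 of the shFITM2 libraries or without shCTRL replicate 1, with adjusted p between 0.113 and 0.150 for the shFITM2 libraries and 0.212 for the shCTRL library.

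The inducible pair was low beside HSPA8 in either group. Per length HSPA1A stood at 13.0% ± 0.752 of HSPA8 in shFITM2 and at 5.30% ± 1.30 in shCTRL, and HSPA1B at 13.3% ± 0.717 in shFITM2 and at 7.96% ± 1.03 in shCTRL (SD, n = 3 each). These percentages were not adjusted for the GC trend, and their level depends on the length used. HSPA8 has 4849 bases in the table and 2463 in its GENCODE transcript, while HSPA1A has 2483 in both. HSPA1A was at 97.6% ± 3.37 of HSPA1B in shFITM2 and at 66.0% ± 8.20 in shCTRL. Of the 50-base stretches of HSPA1A transcripts, 72.6% also occur in HSPA1B, and 73.5% of those of HSPA1B occur in other genes, so how reads were split between the copies is uncertain. Their summed CPM, which that split within the pair does not alter, was 201, 188 and 188 in shFITM2, against 129, 115 and 146 in shCTRL, with no overlap. This sum was not adjusted for the GC trend. HSPA6, which is known for being silent until heat stress, did not pass the filter.

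**Figure D2:**
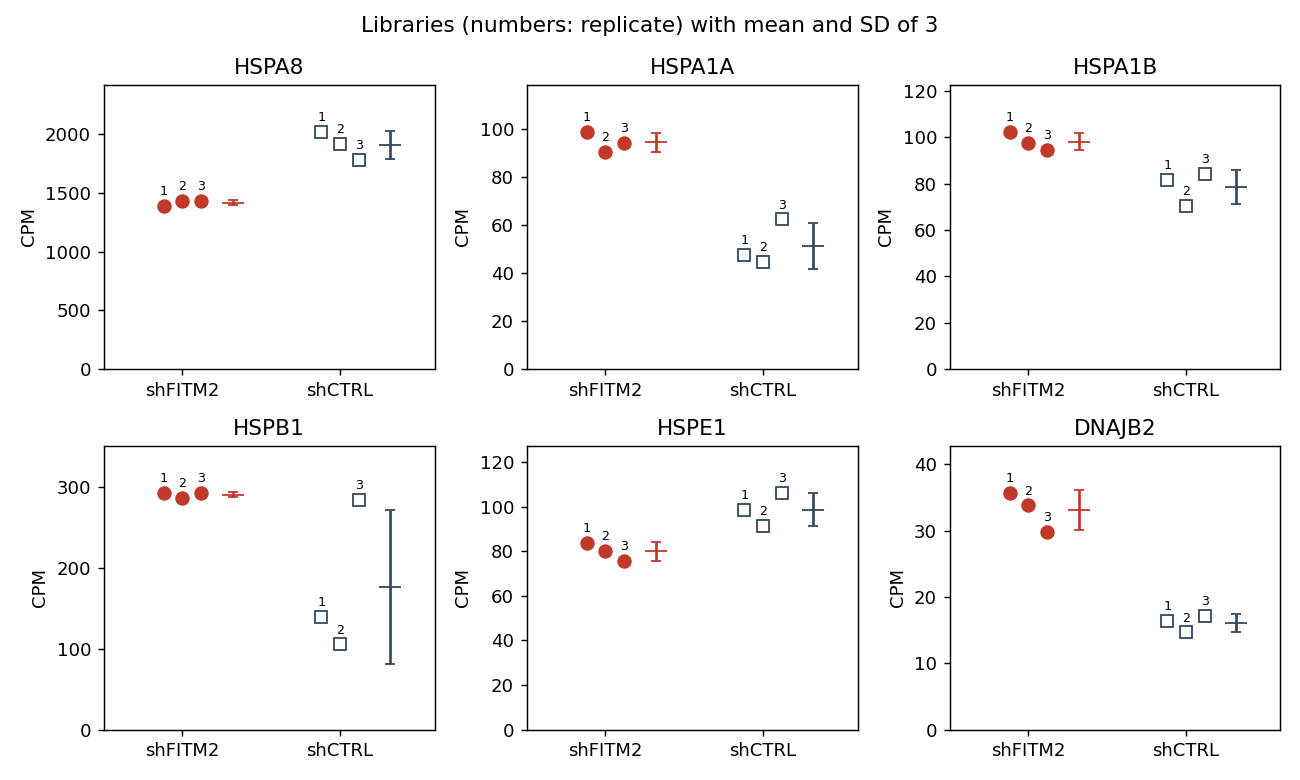
CPM by library for HSPA8, HSPA1A, HSPA1B, HSPB1, HSPE1 and DNAJB2 in shFITM2 (filled circles) and shCTRL (open squares), numbered by replicate, with the mean and SD of the 3 libraries beside them. HSPA8 and HSPE1 are lower and HSPA1A, HSPA1B and DNAJB2 higher in every shFITM2 library, and shCTRL replicate 3 of HSPB1 lies at the shFITM2 level (284 CPM).

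Of the other HSP70 relatives, HSPA14, which works at the ribosome with DNAJC2, was lower in both fits under both of its entries. The first entry had 24.7, 26.1 and 26.1 CPM in shFITM2, against 39.6, 45.5 and 37.4 CPM in shCTRL (log2 fold change −0.67, adjusted p = 0.000282, and −0.42 in the GC-offset fit, adjusted p = 0.000919). The second entry (ENSG00000284024), which shares 460 exon bases with it, was lower by 0.43 (adjusted p = 0.00516), and its GC-offset call (−0.26, adjusted p = 0.0318) was lost when replicate 1 or 2 of either group was left out (adjusted p from 0.0672 to 0.182). DNAJC2, the ribosome-associated J protein, moved alongside at 43.1, 44.0 and 44.4 CPM in shFITM2, against 70.8, 74.4 and 62.1 CPM in shCTRL. Neither gene's groups overlapped, and DNAJC2 fell by 0.66 (adjusted p = 0.000168) and by 0.42 in the GC-offset fit (adjusted p = 0.000173). DNAJC2 overlaps PMPCB by 628 exon bases on the opposite strand, and PMPCB held 155% of its reads. HSPA1L, HSPA2, HSPA12A and HSPA12B averaged under 5 CPM in each group and were not called in either fit with all libraries. Without shCTRL replicate 3, HSPA12A passed the threshold in the group fit (−0.72, adjusted p = 0.0467) and HSPA2 in the GC-offset fit (0.58, adjusted p = 0.0450).

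All 3 HSP110-type exchange factors were called lower in both fits (background 10%, with 24.5% in the group fit and 17.4% in the GC-offset fit). Their transcripts have 38.1% to 42.5% GC. Of all genes under 45% GC, 54.0% were lower in the group fit and 16.6% in the GC-offset fit. HSPH1 (HSP105) was at 539, 546 and 549 CPM in shFITM2, against 832, 836 and 765 CPM in shCTRL. HSPA4 (APG-2) was at 233, 232 and 235 CPM in shFITM2, against 329, 339 and 322 CPM in shCTRL. HSPA4L (APG-1) was at 64.0, 65.7 and 65.2 CPM in shFITM2, against 105, 115 and 98.7 CPM in shCTRL. In each the shFITM2 libraries lay close together and none reached a shCTRL value. The log2 falls were 0.57 for HSPH1 (SE 0.0609, adjusted p = 6.46e-05), 0.50 for HSPA4 (SE 0.0597, adjusted p = 0.000107) and 0.71 for HSPA4L (SE 0.0769, adjusted p = 6.83e-05). The falls in the GC-offset fit were 0.21, 0.23 and 0.29, all called. HSPBP1, an exchange factor of another fold, was at 145, 146 and 131 CPM in shFITM2, against 92.8, 94.4 and 131 CPM in shCTRL. Its shCTRL replicate 3 lay within the shFITM2 range, and its log2 fold change was 0.41 (adjusted p = 0.0274) but −0.33 in the GC-offset fit (adjusted p = 0.000253). The group call of HSPBP1 was lost when replicate 1 or 2 of either group was left out (adjusted p from 0.0800 to 0.0870). At 64.6% GC, HSPBP1 had the most GC-rich transcript among the tested members.

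Of 9 mitochondrial members, 5 were lower (55.6%) and 1 higher (11.1%) in the group fit, beside 24.5% and 24.2% of all tested genes. Both fits called 3 lower (33.3%, background 10%) and none higher (background 7.91%). Those 3 were HSPD1, HSPE1 and HSPA9, the core of the folding machinery. HSPD1 (HSP60), the chaperonin ring, was at 1057, 1075 and 1098 CPM in shFITM2, against 1515, 1627 and 1395 CPM in shCTRL. Its lid HSPE1 (HSP10) was at 83.9, 80.2 and 75.7 CPM in shFITM2, against 98.5, 91.2 and 106 CPM in shCTRL. HSPA9 (mortalin), the HSP70 of the matrix, was at 408, 416 and 413 CPM in shFITM2, against 579, 620 and 529 CPM in shCTRL. No shFITM2 library reached a shCTRL library for any of the 3. HSPD1 fell by 0.49 (SE 0.0670, adjusted p = 0.000212) and by 0.29 in the GC-offset fit (adjusted p = 0.000184). HSPA9 fell by 0.48 (adjusted p = 0.000267) and by 0.25 in the GC-offset fit (adjusted p = 0.000591). HSPE1 fell by 0.30 (adjusted p = 0.00838) and, unlike most members, by more in the GC-offset fit, 0.37 (adjusted p = 0.000302). Per length HSPE1 stood at 16.0% ± 1.12 of HSPD1 in shFITM2 and at 14.1% ± 2.16 in shCTRL (SD, n = 3 each), and these ranges overlapped. This ratio too was not adjusted for the GC trend. HSPD1 and HSPE1 lie head to head and overlap by 281 exon bases on opposite strands. Over the whole gene, HSPD1 holds 1454% of the reads of HSPE1. Of their stretches of 50 bases, 24.8% for HSPD1 and 27.2% for HSPE1 recur in other genes, pseudogenes among them.

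Of the 6 mitochondrial J proteins, DNAJC15 and DNAJC19, which act at the import motor of the inner membrane, were lower in the group fit (log2 fold changes −0.40 and −0.44, adjusted p = 0.0256 and 0.00964), and their values in the GC-offset fit were 0.01 and −0.06. DNAJC30, which overlaps BUD23 and its 1119% of reads, was higher in the group fit alone (0.37, adjusted p = 0.0461). The calls of DNAJC15 and DNAJC30 were lost without any library other than shCTRL replicate 3 (adjusted p from 0.0661 to 0.179), and that of DNAJC19 without shFITM2 replicate 1 (adjusted p = 0.0577). DNAJA3, the J protein of the matrix, was called in the GC-offset fit alone (−0.18, adjusted p = 0.0384), a call lost without shFITM2 replicate 1, shFITM2 replicate 3, shCTRL replicate 1 or shCTRL replicate 2 (adjusted p from 0.0629 to 0.186). DNAJC11 and DNAJC28 were called in neither fit, and DNAJC11 was called higher in the group fit without shCTRL replicate 3 (0.30, adjusted p = 0.00116).

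Among the CCT subunits, 5 of 8 genes were lower in the group fit (62.5%, background 24.5%) and none was higher (background 24.2%). In the GC-offset fit too 5 were lower (background 17.4%). The ring is built from 8 different subunits, and TCP1, its CCT1 subunit, falls outside the rule by its symbol. CCT2 was at 297, 294 and 310 CPM in shFITM2, against 381, 372 and 379 CPM in shCTRL. CCT4 was at 215, 211 and 216 CPM in shFITM2, against 286, 286 and 281 CPM in shCTRL. CCT6A was at 414, 426 and 424 CPM in shFITM2, against 566, 575 and 546 CPM in shCTRL. These genes and CCT5 and CCT8 showed no overlap between groups. Their log2 falls were 0.33 for CCT2, 0.41 for CCT4, 0.27 for CCT5, 0.42 for CCT6A and 0.40 for CCT8, with adjusted p from 0.000242 for CCT6A to 0.00344 for CCT5.

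In the GC-offset fit CCT2 fell by 0.20, CCT4 by 0.23, CCT6A by 0.21 and CCT8 by 0.15, all still called, and CCT5 had a value of −0.09 (adjusted p = 0.174). The GC-offset call of CCT8 was lost without shFITM2 replicate 1, shFITM2 replicate 2 or shCTRL replicate 1 (adjusted p from 0.0542 to 0.0858). CCT3 and CCT7 stood apart in the group fit. CCT3 was at 423, 436 and 408 CPM in shFITM2, against 435, 440 and 422 CPM in shCTRL, with overlapping groups (−0.03, adjusted p = 0.672). CCT7 was at 336, 347 and 330 CPM in shFITM2, against 294, 298 and 327 CPM in shCTRL, without overlap but not called (0.14, adjusted p = 0.0957), and called without shCTRL replicate 3 (0.18, adjusted p = 0.000966). In the GC-offset fit CCT3 was lower (−0.15, adjusted p = 0.0236), a call lost without any library other than shCTRL replicate 3, and CCT7 was at 0.02. CCT6B, a testis form, was near 1 CPM and called in neither fit. CCT3 and CCT7 were the 2 most GC-rich genes of the ring, at 51.2% and 51.3%, against 43.1% to 45.9% for CCT2, CCT4, CCT5, CCT6A and CCT8.

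By the gene lengths of the table, the 8 ring subunits (TCP1 included, the testis form CCT6B not) kept the same ends of their order in all 6 libraries. TCP1 was the lowest and CCT6A the highest in each, with ratios of highest to lowest of 2.06 to 2.13 in shFITM2 and 2.11 to 2.24 in shCTRL. Between those ends CCT7 ranked above CCT4 and CCT2 in shFITM2 (306 ± 6.21 TPM, against 246 ± 4.80 and 226 ± 6.93) but below CCT4 and within the spread of CCT2 in shCTRL (279 ± 18.1 TPM, against 329 ± 6.03 and 285 ± 2.31). This order rests on the gene lengths of the table, 4018 bases for CCT3 and 2830 for CCT4. The GENCODE transcripts used for GC content have 2150 and 2520 bases, and those of TCP1 and CCT6A have 2499 and 2719. With these lengths both ends differ. TCP1, at a mean of 255 CPM in shFITM2 and 328 CPM in shCTRL, then ranks above CCT4 (214 and 284 CPM). In shFITM2 CCT3, at a mean of 423 CPM, ranks above CCT6A (421 CPM). TCP1 fell by 0.36 (adjusted p = 0.000870) and by 0.14 in the GC-offset fit (adjusted p = 0.0177), a call lost without shFITM2 replicate 1, shFITM2 replicate 2, shFITM2 replicate 3 or shCTRL replicate 1 (adjusted p from 0.0617 to 0.0964). TCP1 shares 397 exon bases on the opposite strand with ACAT2.

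Of 11 tested DNAJA and DNAJB genes outside the mitochondria, 3 were higher (27.3%) and 2 lower (18.2%) in the group fit. These shares are near those of all tested genes (24.2% and 24.5%). In the GC-offset fit 4 were higher (36.4%, background 11.8%) and none lower (background 17.4%). DNAJB1 (HSP40), the inducible partner of HSP70, was at 98.1, 104 and 90.2 CPM in shFITM2, against 91.0, 85.5 and 94.2 CPM in shCTRL. Its groups overlapped, and its log2 fold change was 0.11 (SE 0.0778, adjusted p = 0.252) and −0.09 in the GC-offset fit. It overlaps TECR, which held 118% of its reads, on the opposite strand. DNAJA1, a farnesylated partner of HSPA8, was at 192, 196 and 193 CPM in shFITM2, against 238, 238 and 214 CPM in shCTRL. The groups did not overlap (−0.25, adjusted p = 0.00986), but leaving out shCTRL replicate 1 ended the call (adjusted p = 0.0538) and the value was 0.06 in the GC-offset fit. DNAJA2 and DNAJB4 were not called in the group fit (−0.15 and −0.20) and were higher in the GC-offset fit (0.17, adjusted p = 0.0310, and 0.35, adjusted p = 0.0129). Without shCTRL replicate 3 both were called lower in the group fit (−0.18 and −0.25). The GC-offset call of DNAJA2 was lost without any library other than shCTRL replicate 3, and that of DNAJB4 without shFITM2 replicate 1 or shCTRL replicate 2. DNAJA4, DNAJB5 and DNAJB13 were called in neither fit.

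In the group fit the largest rises of the class were in DNAJB2 and DNAJB12. DNAJB2, which binds ubiquitylated clients and hands them to the proteasome, was at 35.7, 33.8 and 29.8 CPM in shFITM2, against 16.4, 14.7 and 17.2 CPM in shCTRL. Its groups were well apart, with a mean of 206% of control. It was higher by 1.04 (SE 0.107, adjusted p = 5.53e-05) and by 0.43 in the GC-offset fit (adjusted p = 0.00250), and it was the only member called at 2-fold or more (background 5.27%). DNAJB6, a suppressor of polyglutamine aggregation, was at 120, 119 and 117 CPM in shFITM2, against 105, 94.2 and 105 CPM in shCTRL, and was higher in both fits (0.22, adjusted p = 0.0216, and 0.19, adjusted p = 0.0135). The group call of DNAJB6 was lost without any library other than shCTRL replicate 3 (adjusted p from 0.0502 to 0.0914), and its GC-offset call without shFITM2 replicate 1, shFITM2 replicate 2 or shCTRL replicate 2 (adjusted p from 0.0573 to 0.0655). Of DNAJB6 stretches of 50 bases, 19.1% recur in other genes. DNAJB12 and DNAJB14 are related J proteins anchored in the endoplasmic reticulum membrane and were called in opposite directions in the group fit. DNAJB12, at 72.7, 73.4 and 70.9 CPM in shFITM2 against 51.0, 48.4 and 53.4 CPM in shCTRL, was higher by 0.51 (adjusted p = 0.000314), and DNAJB14, at 49.6, 48.9 and 57.7 CPM in shFITM2 against 71.0, 85.4 and 71.5 CPM in shCTRL, was lower by 0.54 (adjusted p = 0.000972). Neither was called in the GC-offset fit (0.13 and 0.00). DNAJB12 has 56.5% GC and DNAJB14 33.4%, and the part of GC content in this pair was not tested beyond that fit.

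Among the DNAJC proteins, which carry a J domain in otherwise unrelated proteins, 9 of 19 tested were lower and 4 higher in the group fit. These are 47.4% and 21.1%, beside 24.5% and 24.2% of all tested genes. The GC-offset fit had 6 lower (31.6%, background 17.4%) and 2 higher (10.5%, background 11.8%). DNAJC14, a J protein of the endoplasmic reticulum membrane, was at 24.3, 24.4 and 20.6 CPM in shFITM2, against 11.7, 9.63 and 13.7 CPM in shCTRL. It showed no overlap and was higher in both fits (0.99, SE 0.136, adjusted p = 0.000217, and 0.83, adjusted p = 7.71e-05). Its exons overlap ORMDL2 and TMEM198B on the opposite strand, which held 96.9% and 53.0% of its reads. DNAJC4, at 18.5, 13.5 and 18.4 CPM in shFITM2 against 9.22, 6.17 and 10.1 CPM in shCTRL, was higher in the group fit alone (0.99, adjusted p = 0.00176). It shares exon bases with NUDT22 on the same strand, and NUDT22 held 234% of its reads. DNAJC17, a nuclear J protein, was likewise higher in the group fit alone (0.66, adjusted p = 0.00115), at 16.96, 15.01 and 16.28 CPM in shFITM2 against 9.54, 11.52 and 9.56 CPM in shCTRL, and ZFYVE19 on its opposite strand held 336% of its reads. Without shCTRL replicate 2, DNAJC17 was called in the GC-offset fit as well (0.44, adjusted p = 0.0146).

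On the lower side, DNAJC25, DNAJC24, DNAJC2, DNAJC13 and DNAJC7 were called in both fits. DNAJC25 was at 4.17, 7.36 and 6.66 CPM in shFITM2, against 10.7, 10.4 and 10.4 CPM in shCTRL (−0.79, SE 0.187, adjusted p = 0.00469). DNAJC24, which takes part in making the diphthamide residue of elongation factor 2, was at 11.8, 10.0 and 10.6 CPM in shFITM2, against 17.5, 19.8 and 14.4 CPM in shCTRL (−0.68, adjusted p = 0.00188). Both lacked overlap, and both were called in the GC-offset fit (−0.49, adjusted p = 0.0424, and −0.35, adjusted p = 0.0334). The GC-offset call of DNAJC25 was lost without shFITM2 replicate 1 (−0.29), shFITM2 replicate 3, shCTRL replicate 1 or shCTRL replicate 2, and that of DNAJC24 without shFITM2 replicate 2, shFITM2 replicate 3, shCTRL replicate 1 or shCTRL replicate 2. DNAJC13, a J protein of endosomes, fell by 0.49 (adjusted p = 0.000371) and by 0.18 in the GC-offset fit (adjusted p = 0.0112), a call lost without shFITM2 replicate 1 (adjusted p = 0.0637). DNAJC7, which binds HSP70 and HSP90 through its TPR repeats, fell by the same 0.27 in both fits (adjusted p = 0.00720 and 0.00158), and CNP on its opposite strand held 96.7% of its reads. DNAJC10, an endoplasmic reticulum J protein with thioredoxin domains that the rule keeps, DNAJC21 of ribosome biogenesis, DNAJC8 of the spliceosome and DNAJC16 were lower in the group fit alone, by 0.28 to 0.47. DNAJC5, the cysteine string protein of secretory vesicles, was higher in the group fit alone (0.36, adjusted p = 0.000820). Without shCTRL replicate 3 the GC-offset fit called DNAJC16 and DNAJC5 lower (−0.21 and −0.14) and DNAJC21 higher (0.13). DNAJC1 (−0.37, adjusted p = 0.0159), of the endoplasmic reticulum membrane, and DNAJC12 (0.82, adjusted p = 0.0430), at 1.46 to 2.88 CPM, were called in the GC-offset fit alone. The call of DNAJC1 was lost without shFITM2 replicate 2 or shFITM2 replicate 3, and that of DNAJC12 without these or shCTRL replicate 2, while without shCTRL replicate 2 the group fit called DNAJC1 lower (−0.34). DNAJC9, a chaperone of histones, DNAJC18, DNAJC22 and DNAJC27 were called in neither fit.

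**Figure D3:**
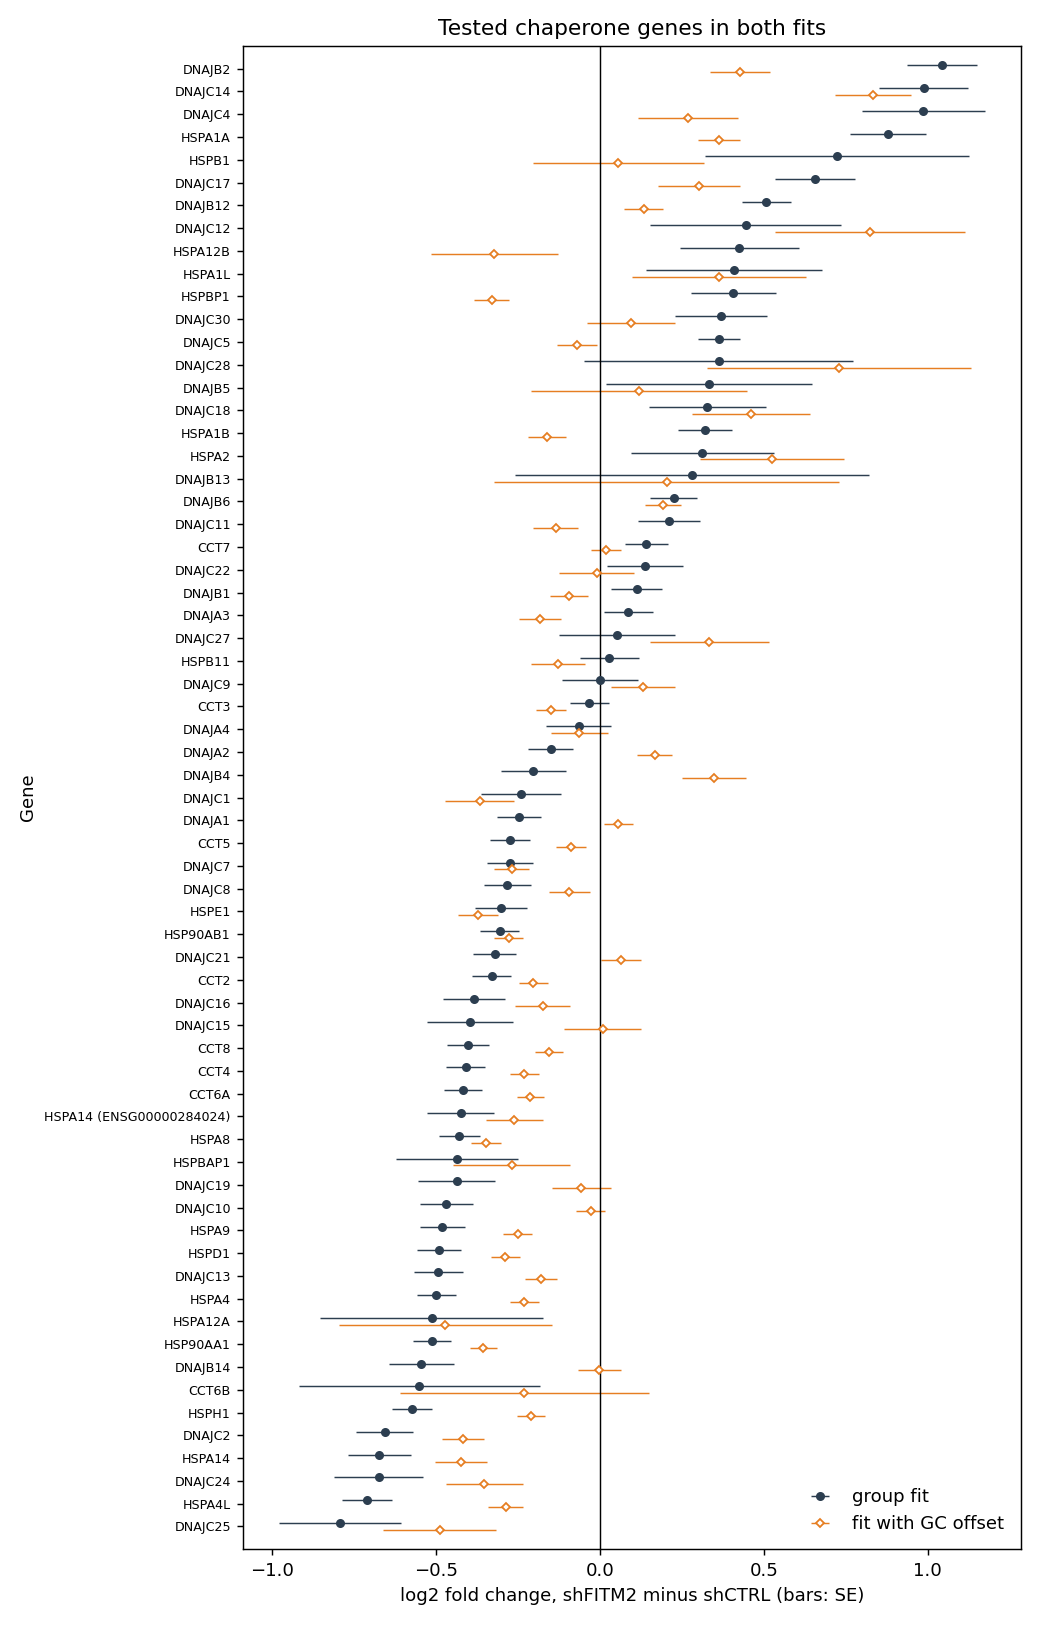
Log2 fold changes (shFITM2 minus shCTRL, bars are SE) of the 65 tested chaperone genes in the group fit (filled circles) and in the GC-offset fit (open diamonds), sorted by the group fit. For 52 of the 65 genes the open point lies nearer to 0 than the filled one, and 15 genes have values of opposite sign in the 2 fits, of which HSPA1B and HSPBP1 were called in both.

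HSPB1 (HSP27) was the 1 small heat shock protein with high expression, and its controls were split. It was at 292, 287 and 293 CPM in shFITM2, against 139, 105 and 284 CPM in shCTRL. The shFITM2 libraries lay close together, and shCTRL replicate 3 lay just under them while the other shCTRL libraries lay far lower. The log2 fold change was 0.72 (SE 0.404, adjusted p = 0.207) and 0.06 in the GC-offset fit (adjusted p = 0.908). Without shCTRL replicate 3 it was 1.24 (adjusted p = 2.15e-05) and 0.35 in the GC-offset fit (adjusted p = 0.00935). HSPB1 has 64.5% GC, among the highest of the members, and shCTRL replicate 3 is the control library whose GC slope was closest to those of shFITM2. HSPB11, a subunit of the ciliary transport complex, was called in neither fit. Nor was HSPBAP1, which binds HSPB1 (−0.44, adjusted p = 0.0719), although the group fit called it lower without shFITM2 replicate 1 (−0.69) or without shCTRL replicate 3 (−0.49), as did the GC-offset fit without shFITM2 replicate 1 (−0.53).

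The 16 members that did not pass the filter include 6 of the 8 small heat shock proteins. No read was counted in any library for CCT8L2, DNAJB8, DNAJC25-GNG10, DNAJC5B, DNAJC5G, HSPB2, HSPB2-C11orf52 and HSPB3, which at 3 counts allows up to 0.159 to 0.177 CPM in a library, counting error alone. The other 8 (DNAJB7, DNAJC6, HSPA6, HSPB6, HSPB7, HSPB8, HSPB9 and HSPE1-MOB4) reached at most 0.590 CPM. A difference between groups was not detectable at that depth.

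Ordered per length, with the gene lengths of the table, the most abundant members were the same in both groups. HSP90AB1 led with 1973 ± 28.0 TPM in shFITM2 and 2454 ± 128 TPM in shCTRL, followed by HSPA8 with 949 ± 10.8 TPM in shFITM2 and 1285 ± 69.7 TPM in shCTRL (SD, n = 3 each). HSPD1 came next with 824 ± 15.4 TPM in shFITM2 and 1165 ± 98.1 TPM in shCTRL, and HSP90AA1 with 625 ± 10.6 TPM in shFITM2 and 898 ± 33.5 TPM in shCTRL. In shCTRL the spreads of HSPA8 and HSPD1 touch, and in shFITM2 these neighbours are apart by more than their SDs. HSPB1 ranked 5th in shFITM2 (578 ± 9.93 TPM) and 6th in shCTRL (352 ± 191 TPM), where its spread reaches beyond CCT6A and CCT3. HSPBP1 ranked 12th in shFITM2 and 18th in shCTRL, and HSPH1 ranked 13th in shFITM2 and 9th in shCTRL.

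**Figure D4:**
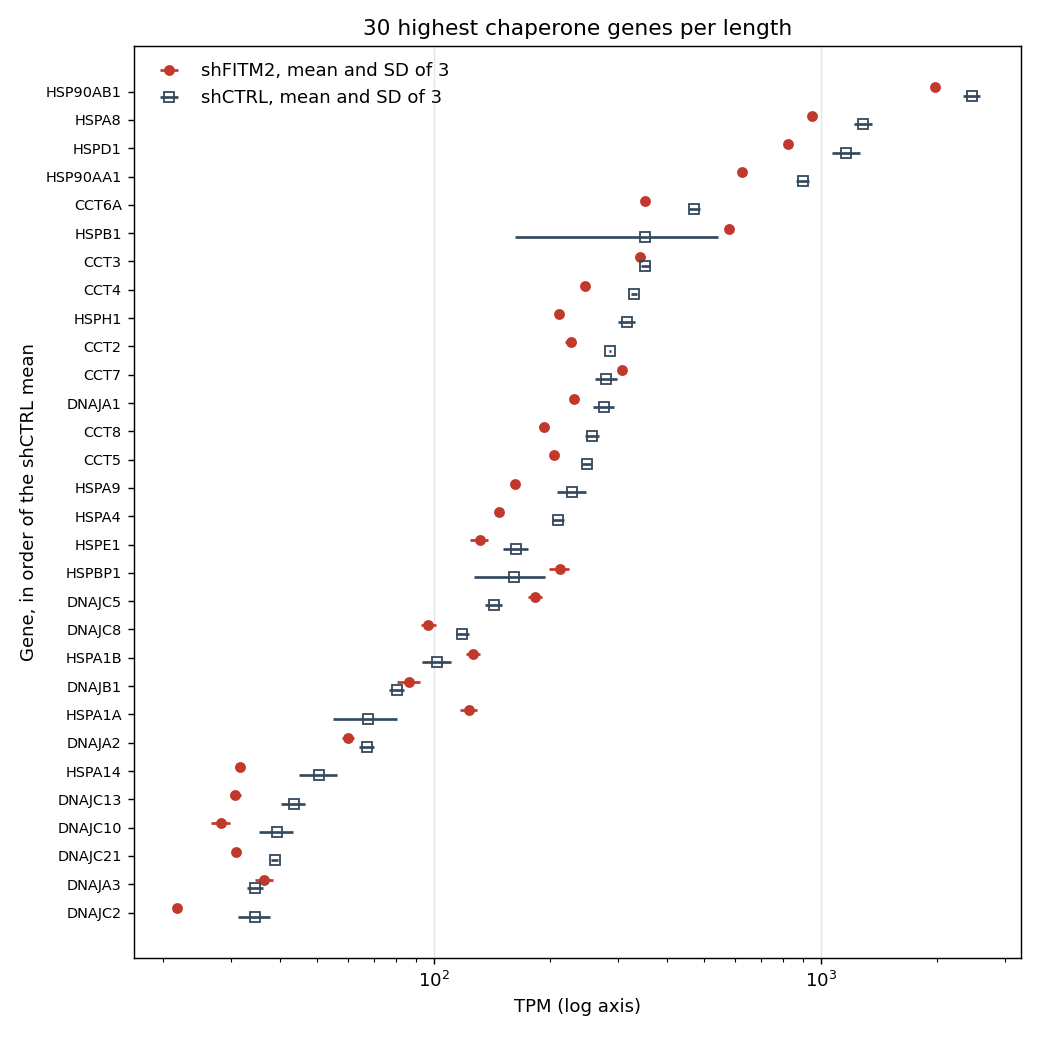
TPM (log axis) of the 30 chaperone genes highest in shCTRL, mean and SD of the 3 libraries of shFITM2 (filled circles) and shCTRL (open squares), in order of the shCTRL mean. HSP90AB1, HSPA8, HSPD1 and HSP90AA1 lead in both groups, and the SD of HSPB1 in shCTRL is the widest shown.

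By class, the summed CPM of HSP90 genes was 2819 ± 50.6 in shFITM2 and 3677 ± 157 in shCTRL, that of the CCT genes 2262 ± 8.13 in shFITM2 and 2670 ± 30.1 in shCTRL, and that of the mitochondrial genes 1742 ± 21.2 in shFITM2 and 2357 ± 154 in shCTRL (SD, n = 3 each). The HSP110 and exchange factor genes summed to 984 ± 5.39 CPM in shFITM2 and 1353 ± 34.3 CPM in shCTRL, and the cytosolic HSP70 genes to 1674 ± 17.6 CPM in shFITM2 and 2123 ± 111 CPM in shCTRL. In these 5 classes no shFITM2 library reached a shCTRL library. The sums carry no GC offset, and among all tested genes 29.9% had every shFITM2 library below every shCTRL library. The DNAJA and DNAJB genes of the cytosol and endoplasmic reticulum summed to 718 ± 10.2 CPM in shFITM2 and 730 ± 14.7 CPM in shCTRL, and their libraries overlapped. The small heat shock proteins, mostly HSPB1, summed to 321, 318 and 325 CPM in shFITM2, against 168, 134 and 315 CPM in shCTRL, higher in shFITM2 without overlap but with shCTRL replicate 3 close to it. In TPM the groups overlapped, with shFITM2 replicate 2 at 598 and shCTRL replicate 3 at 601. DNAJC genes summed to 1062 ± 11.7 CPM in shFITM2 and 1182 ± 47.5 CPM in shCTRL, without overlap. In TPM they summed to 577, 548 and 558 in shFITM2, against 582, 599 and 576 in shCTRL, and the groups overlapped.

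Direction followed transcript GC content among the members as it did among all genes. The 11 members called higher in the group fit had 49.4% to 64.6% GC (median 57.7%), and the 29 called lower had 33.4% to 50.2% (median 43.3%). Of the 29 tested members under 45% GC, 22 were lower and none was higher in the group fit, where 54.0% of all genes of that GC content were lower and 1.88% higher. In the GC-offset fit 13 of the 29 were lower and 3 higher (16.6% and 11.2% of all such genes). Of the 25 members of 45 to 55% GC, 7 were lower and 3 higher (14.2% and 16.9% of all such genes), and in the GC-offset fit 10 were lower and 2 higher (17.1% and 11.6%). The 11 members of at least 55% GC held 8 higher and no lower calls, where 59.5% of all such genes were higher and 0.723% lower. In the GC-offset fit they held 2 higher and 2 lower calls (12.9% and 18.6% of all such genes). Among all genes under 45% GC the median log2 fold change was −0.37, beside −0.42 for the members, and among all genes of at least 55% GC it was 0.52, beside 0.51 for the members. Across the 65 tested members, which share the same libraries and are not independent replicates, Pearson's r between GC content and log2 fold change was 0.74 and Spearman's rho 0.70, and in the GC-offset fit 0.05 and 0.08. The offset takes the GC trend out of each library, so low values after it follow from how it is made.

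**Figure D5:**
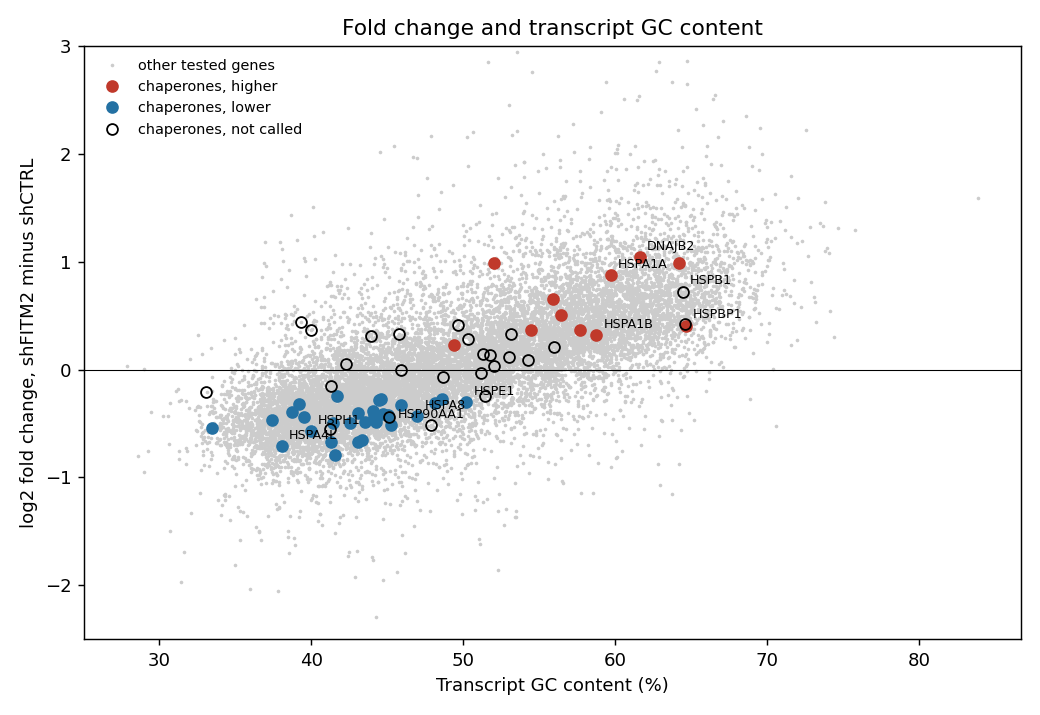
Transcript GC content (%) against log2 fold change (shFITM2 minus shCTRL, group fit) for tested genes (grey) and the 65 tested chaperones (red called higher, blue called lower, open not called). The higher chaperones lie at 49.4% GC and above and the lower ones at 50.2% and below, within the cloud of all genes, and 5 other genes lie outside the axis.

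Of the 6 tested members whose promoter window held the 3-unit element, 5 were lower in the group fit (HSP90AA1, HSP90AB1, HSPA8, HSPD1 and DNAJA1) and DNAJB6 was higher, beside 24.5% lower and 24.2% higher among all tested genes. Among all tested members 44.6% were lower and 16.9% higher. Among members with a mean of at least 50 CPM, which these 6 are, the shares were 64.7% and 17.6%. The printed windows were chosen with these directions known, so the count is a description. In both fits 4 were lower (background 10%), since DNAJA1 was not called in the GC-offset fit, and DNAJB6 was higher (background 7.91%). Of all tested members both fits called 30.8% lower and 6.15% higher. HSPA1A and HSPA1B, without an exact match in their windows, were higher in the group fit, and in the GC-offset fit HSPA1A was higher and HSPA1B lower.

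The heat shock factors and the partners of these chaperones were taken from 4 further lists of 44 genes, of which 43 were tested. In the group fit 15 were higher and 15 lower (34.9% each, beside 24.2% higher and 24.5% lower among all tested genes). Both fits called 7 higher and 5 lower (16.3% and 11.6%, beside 7.91% and 10%). Of the 5 genes of the heat shock factor list, 4 were tested. HSF1, the main activator of the heat shock response, was at 156, 147 and 143 CPM in shFITM2, against 104, 92.4 and 128 CPM in shCTRL. Its groups did not overlap, and its log2 fold change was 0.46 (SE 0.108, adjusted p = 0.00524), but −0.25 in the GC-offset fit (adjusted p = 0.00121), at 63.9% GC. HSF1 overlaps DGAT1, which held 59.2% of its reads, on the opposite strand. HSF2, a factor that can pair with HSF1, was at 11.9, 15.1 and 14.9 CPM in shFITM2, against 25.8, 22.6 and 17.1 CPM in shCTRL (−0.65, adjusted p = 0.00546, and −0.30 in the GC-offset fit, adjusted p = 0.0867). Without shCTRL replicate 3 the GC-offset value of HSF2 was −0.41 (adjusted p = 0.00284). HSF4 was higher (1.09, adjusted p = 0.000599) and HSBP1, which binds HSF1 trimers, lower (−0.21, adjusted p = 0.0211) in the group fit alone, and the call of HSBP1 was lost without any library other than shFITM2 replicate 3 or shCTRL replicate 3 (adjusted p from 0.0515 to 0.1004).

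Over all tested genes 24.2% were higher and 24.5% lower in the group fit, and 7.91% and 10% in both fits. Of 14 HSP90 co-chaperones, 4 were higher and 4 lower in the group fit (28.6% each), and 1 was higher and 3 lower in both fits (7.14% and 21.4%). CHORDC1, an HSP90-binding zinc protein, was at 32.7, 33.0 and 34.4 CPM in shFITM2, against 58.1, 58.6 and 56.7 CPM in shCTRL, and fell in both fits (−0.79, adjusted p = 4.64e-05, and −0.28, adjusted p = 0.00939). UNC45A, a myosin chaperone that binds HSP90, was higher in the group fit (0.70, adjusted p = 7.35e-05) but not in the GC-offset fit (0.15, adjusted p = 0.102), save without shCTRL replicate 2 (0.21, adjusted p = 0.0182). Of 12 HSP70 co-chaperones, 4 were higher and 4 lower in the group fit (33.3% each), and 2 were higher (16.7%) and none lower in both. BAG1, an exchange factor of HSP70, was at 68.3, 67.6 and 71.2 CPM in shFITM2, against 45.7, 48.0 and 52.8 CPM in shCTRL, and was higher in both fits (0.50, adjusted p = 0.000520, and 0.51, adjusted p = 5.52e-05). BAG6 was higher in the group fit (0.46, adjusted p = 0.000267) and at −0.07 in the GC-offset fit, where it was called lower without shCTRL replicate 3 (−0.14, adjusted p = 0.00603).

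Of 13 prefoldin and TRiC partner genes, TCP1 among them, 5 were higher and 5 lower in the group fit (38.5% each, background 24.2% and 24.5%). In both fits 4 were higher and 2 lower (30.8% and 15.4%, background 7.91% and 10%). Prefoldin carries unfolded actin and tubulin to the ring. PFDN6, 1 of its subunits, was at 33.6, 36.7 and 28.8 CPM in shFITM2, against 10.7, 7.57 and 12.6 CPM in shCTRL (1.69, SE 0.168, adjusted p = 7.35e-05, and 1.24 in the GC-offset fit, adjusted p = 5.25e-06). Its exons overlap RGL2 and WDR46 on the opposite strand, which held 246% and 238% of its reads. VBP1, another prefoldin subunit, was at 97.3, 98.7 and 93.7 CPM in shFITM2, against 160, 171 and 137 CPM in shCTRL, and fell in both fits (−0.69, adjusted p = 0.000127, and −0.27, adjusted p = 0.00157). Subunits of the same complex were thus called in opposite directions.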

How the data were processed

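RNA-seq libraries of HT29 cells (3 shFITM2 and 3 shCTRL) were made with a directional kit, per the labels' protocols. The authors deposited 1 table of raw counts of reads per gene. The submitters' processing notes list featureCounts 1.5.0-p3, HISAT2 2.0.5, DESeq2 1.16.1 and StringTie 1.3.3b, with the build hg19. The positions in the table are those of GENCODE release 29 on GRCh38 for 58735 of 58735 genes with an Ensembl identifier (243 loci have none). Neither the strand setting of the counting nor its treatment of multi-mapping reads is stated, so overlapping and copied genes are named with that limit. Columns were matched to samples by name, the header spelling shCTRL as shCRTL, and 0 columns stayed unmatched. Library totals ran from 16964075 to 18855731 counts, and replicates of a group differed by more than sampling noise (chi-square per gene from 2.32 to 28.3).

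Those counts were tested in R 4.3.3 with the quasi-likelihood F-test of edgeR 4.0.16 (limma 3.58.1), robust, with group as the sole term, TMM library sizes and p-values adjusted by Benjamini-Hochberg across the 14809 genes past the edgeR filter (minimum count 10, total 15). CPM use TMM library sizes, with mean ± SD of 3 libraries. TPM use the gene length in the table, which differs from the GENCODE transcript length by a factor that varies between genes. Orders and ratios between genes per length depend on that choice and carry no GC offset. For the GC offset, the log2 deviations of a library were smoothed over transcript GC content (spline, 6 degrees of freedom, 1 GENCODE transcript per gene) and the curve entered edgeR as an offset for 14635 genes. Changes of the cells that run with GC content are removed along with it. The fit was tested on simulated data. Shared stretches were counted as 50-base words of GENCODE transcripts. Reads of an overlapping gene are those of the whole gene. Alternatives were DESeq2 size factors, library totals, other filters, the DESeq2 1.42.0 Wald test, limma-voom, GC with length, a replicate block and each library left out.

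The members, the partner lists, the markers and the alternatives were chosen with earlier results of these data known. The rule for named genes took FITM2, 20 core members, the 5 further members that rose most and the 5 that fell most (called, mean of at least 5 CPM, no overlap between groups), HSF1, HSF2 and TCP1, and the 2 genes with the smallest p of each partner list. Other members are named in their class. Intervals and zero limits cover counting error alone.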

Additional observations from a re-analysis of the deposited data

How the results depend on the processing

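In all 7205 genes were called, and 4275 with the GC offset, which lowered the count of chaperone genes called higher to 7. Under DESeq2 size factors, library totals, both other filters, the DESeq2 Wald test and limma-voom the members called numbered 39 to 41, against 40. The median log2 fold change of tested chaperones was −0.24, −0.14 with no expression filter, where 73 members were fitted, and −0.095 with the GC offset. With the GC offset HSPA1B changed sign to −0.16, DNAJB1 to −0.095, DNAJA1 to 0.056, HSF1 to −0.25 and BAG6 to −0.073. The cause was not tested.

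Leaving out each library gave 5338 to 9008 changed genes, 8 to 14 chaperones higher, 27 to 33 lower, a median of −0.25 to −0.23 and a FITM2 log2 fold change of −1.22 to −1.002. With the GC offset these ran from 2806 (without shFITM2 replicate 1) to 5618, from 4 to 10, from 18 to 27, from −0.14 to −0.07 and from −1.20 to −0.98. Values of HSPB1 with the GC offset ran from −0.13 (without shCTRL replicate 2) to 0.35, with −0.024 without shCTRL replicate 1, and those of CCT7 from −0.011 (without shCTRL replicate 1) to 0.049, with −0.00027 without shFITM2 replicate 2.

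Whether replicate numbers pair the libraries is not known. The correlation of deviations at the same number was −0.04, −0.01 and −0.07, and with 3 libraries per group these values cannot decide it. With the replicate block 6729 genes were called, 9 chaperones higher and 30 lower, and with the block and the GC offset 4181 genes, 6 higher and 24 lower. Of the named genes HSBP1 lost its call under the block (adjusted p = 0.0669), and HSPA1B lost its GC-offset call under the block (adjusted p = 0.0519) and with transcript length in the offset (adjusted p = 0.0591).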
